A study of Mus musculus with 6 samples.

Results

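The genes described here encode calcium-dependent membrane and cytoskeletal proteins: the annexins, the S100 proteins, a group of calpains and galectins, and partners such as Ahnak, myoferlin and dysferlin. A gene was taken when a probe set with exactly 1 symbol in the platform annotation named it and the symbol began with Anxa or S100a or stood on a list of 18 further genes. S100g was left out by that rule. It gave 41 genes of the 18193 measured: 11 annexins, 13 S100 genes, 4 calpain genes, 5 galectins, 6 membrane-repair and calcium-sensor genes, and 2 actin-binding genes. Where several probe sets named a gene, the one with the highest 6-array mean stood for it.

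The samples were kidney epithelium dissected by hand from mice, on 6 Affymetrix arrays, 1 per sample. The 3 knockout samples were cystic epithelium of mice labelled Fh1 knockout, and the 3 wild-type samples came from disease-free littermates of matched sex. Fh1 encodes fumarate hydratase, an enzyme of the tricarboxylic acid cycle. The labels give no strain, age or Cre promoter and do not say whether each sample was a separate animal, so every p-value covers only the variation among these 6 samples, which may be technical. The comparison asks how expression in the cystic tissue differed from that of disease-free littermates.

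As background, annexins bind acidic phospholipids of membranes when calcium rises, and S100 proteins are small EF-hand dimers that change shape on binding calcium and then dock onto target proteins. The families meet in defined complexes: S100a10 joins annexin A2 in a tetramer at the cell surface and binds Ahnak, and calpains, ferlins and annexins act together where a torn plasma membrane is resealed. Galectins are secreted or cytosolic lectins that recognise galactose-containing sugars on glycoproteins and on damaged endosomes.

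Values are RMA values on the log2 scale, as deposited, and a log2 fold change is the knockout mean minus the wild-type mean. Adjusted p is limma's, with Benjamini-Hochberg adjustment over the 18193 genes and a threshold of 0.05. Fh1 itself read 12.41, 12.34 and 12.22 in wild-type samples 1 to 3 and 11.54, 11.60 and 11.61 in knockout samples 1 to 3. All genes correlated at 0.988 to 0.992 among wild-type arrays, 0.995 to 0.997 among knockout arrays and 0.952 to 0.964 between groups. Listed markers of the proximal tubule averaged 12.29 to 12.61 in wild-type and 10.63 to 10.90 in knockout arrays, so tubule transcripts were abundant in both groups. Such markers cannot tell dissected epithelium from whole kidney. Endothelial markers were also present, with list means of 8.45 to 8.69 in wild-type and 7.90 to 8.09 in knockout arrays. Adipocyte markers stood apart in wild-type 2 (mean 8.68) and knockout 3 (8.37), against 5.79 to 6.75 in the other arrays. Bulk tissue cannot separate a change in the number of cells of a type from a change in RNA per cell.

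Most of these genes were more abundant in the knockout. Of the 41, 28 rose, 2 fell and 11 did not pass the threshold. Over all genes tested, 49.2% passed: 21.6% rose and 27.7% fell. With each array centred on its median gene, 25 of the 41 rose and 4 fell, against 3380 higher and 6866 lower among all genes. Changes of at least 2-fold were found for 15 of the 41, all higher, while 5.44% of all genes rose and 3.39% fell by that much. The median log2 fold change was 0.68 over the 41 genes and -0.11 over all genes. All knockout values lay above all wild-type values for 28 of the 41 (25.7% of all genes), and below them for 4 (37.1% of all genes). The 28 genes that rose and the 28 without overlap were not quite the same, since Lgals9 rose with overlapping groups and Anxa9 lay above without passing. Leaving out wild-type 2 and knockout 3 together gave 26 higher and 2 lower, against 3096 higher and 3212 lower among all genes.

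**Figure D1:**
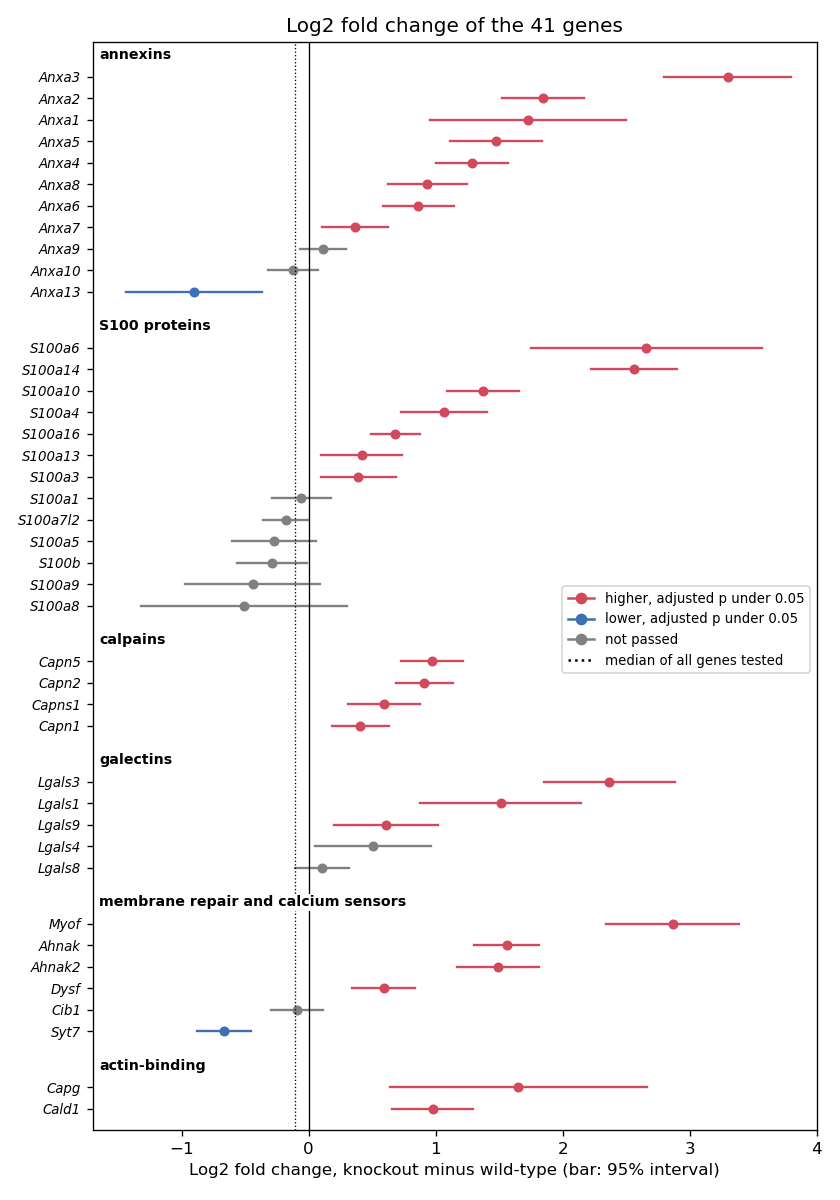
Log2 fold change of each of the 41 genes (knockout minus wild-type, 3 arrays per group), grouped by family, with bars for the 95% interval of limma's moderated fit; red is higher, blue lower and grey not passed. Anxa3, Myof, S100a6, S100a14 and Lgals3 lie above 2, the calpains lie between 0.41 and 0.97, and Anxa13 and Syt7 are the genes below 0 that passed.

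By family, of 11 annexins 8 rose and 1 fell, of 13 S100 genes 7 rose and none fell, and of 5 galectins 3 rose and none fell. The 4 calpain genes all rose, by less than 2-fold each, Capn1 losing its call under 2 alternatives. Of the 6 membrane-repair and calcium-sensor genes 4 rose and 1 fell, and both actin-binding genes rose. Over all genes 21.6% rose and 27.7% fell. The median log2 fold change was 0.94 for the annexins, 0.39 for the S100 genes, 0.75 for the calpains and 0.61 for the galectins.

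Annexin A3, a calcium-dependent phospholipid-binding protein also known from neutrophils, had the largest increase among the 41 genes and ranked 23 of 18193 by log2 fold change. Anxa3 read 8.93, 8.67 and 8.02 in wild-type 1 to 3 and 11.92, 11.89 and 11.71 in knockout 1 to 3. No knockout value came near the wild-type range. The log2 fold change was 3.30 (SE 0.21, adjusted p = 4.30e-05), or 9.85-fold.

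Annexin A2, the plasmin-generating partner of S100a10, showed almost no spread among knockout arrays. Anxa2 read 10.87, 10.75 and 10.33 in wild-type and 12.50, 12.51 and 12.49 in knockout samples, a 3.60-fold rise (log2 fold change 1.85, SE 0.14, adjusted p = 7.37e-05). S100a10 rose beside it, from 11.65, 11.59 and 11.21 to 12.82, 12.88 and 12.88, or 2.59-fold (log2 fold change 1.37, SE 0.12, adjusted p = 0.000144). In both genes wild-type 3 was the lowest array and the groups were far apart. All 3 probe sets of S100a10 rose, with log2 fold changes of 1.31 to 1.53. With all probe sets of a gene averaged, Anxa2 had a log2 fold change of 0.76, because its other probe sets read 6.63 and 3.62 on average and changed by 0.60 and -0.16.

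The promoter of Anxa2 is shown because the gene rose with its S100a10 partner, and those of S100a6 and S100a8 because they are near neighbours that behaved differently. The bases are the 250 before each gene's start in RefSeq, build GRCm38.p6, read 5′ to 3′ on the gene's own plus strand. Anxa2 is at chr9:69453433-69453682, S100a6 at chr3:90612644-90612893 and S100a8 at chr3:90668821-90669070. Capitals mark matches, on either strand, to an AP-1 motif (TGANTCA), a hypoxia-response core (ACGTG) or a TATA box (TATAAA).
Anxa2: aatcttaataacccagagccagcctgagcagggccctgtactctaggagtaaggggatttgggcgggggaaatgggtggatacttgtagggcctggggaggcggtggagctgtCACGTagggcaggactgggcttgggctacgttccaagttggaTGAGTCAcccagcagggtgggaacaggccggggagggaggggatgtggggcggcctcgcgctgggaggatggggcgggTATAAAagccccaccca
S100a6: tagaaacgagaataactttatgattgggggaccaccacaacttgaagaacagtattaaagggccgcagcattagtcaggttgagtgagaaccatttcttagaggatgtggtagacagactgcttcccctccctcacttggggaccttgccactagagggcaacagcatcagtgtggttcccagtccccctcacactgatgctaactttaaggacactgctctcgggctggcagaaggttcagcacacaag
S100a8: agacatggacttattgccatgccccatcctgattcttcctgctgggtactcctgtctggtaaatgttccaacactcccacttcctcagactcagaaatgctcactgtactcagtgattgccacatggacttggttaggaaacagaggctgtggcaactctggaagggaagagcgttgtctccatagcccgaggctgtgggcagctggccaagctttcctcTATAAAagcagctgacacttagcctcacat
In Anxa2 the AP-1 match began 95 bases before the start, the hypoxia-response core 137 bases before and the TATA match 17 bases before. S100a8 held a TATA match 30 bases before its start, and S100a6 held none of these letters in the window. Promoters in the table covered 33 of the 41 genes. An AP-1 match was present in 4 of these 33 and in 6.9% of all 27025 promoters of that length. The hypoxia-response core was present in 6 of 33 against 16.6%, and the TATA box in 6 of 33 against 13.0%. A TEAD motif (GGAATG) was found in 4 of 33 and in 12.6% of all promoters, and a GC box (GGGCGG) in 7 of 33 and in 32.9%. Of the 33 promoters, 22 belonged to genes that rose and 11 to the others. AP-1 matched in 2 and 2 of these, and the hypoxia-response core and the TATA box each in 3 and 3. TEAD matched in 4 and 0, and the GC box in 5 and 2. These splits were not tested. The marked matches do not overlap, and a match describes letters only.

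The other annexins that rose differed in size. Anxa1, the glucocorticoid-regulated annexin that signals through formyl peptide receptors, read 9.40, 9.87 and 8.41 in wild-type and 10.72, 11.01 and 11.14 in knockout samples. It rose 3.31-fold (log2 fold change 1.73, SE 0.33, adjusted p = 0.00456), with a wild-type SD of 0.75 against 0.22 in the knockout. The wide spread came from wild-type 3, the lowest array. With both Anxa1 probe sets averaged the log2 fold change was 0.765, the second probe set reading 4.04 on average.

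Anxa5, the phosphatidylserine-binding annexin used to stain dying cells, read 10.98, 11.02 and 10.42 in wild-type and 12.31, 12.28 and 12.25 in knockout samples. It rose 2.78-fold (log2 fold change 1.48, adjusted p = 0.000303). Anxa4, an annexin of the apical region of epithelia, went from 10.64, 10.69 and 10.29 to 11.85, 11.92 and 11.72, or 2.44-fold (log2 fold change 1.29, adjusted p = 0.000186). In both, the knockout arrays lay close together and wild-type 3 was again the lowest array. All 3 probe sets of Anxa4 rose.

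Smaller rises were seen for Anxa8 (log2 fold change 0.94, adjusted p = 0.00117) and Anxa6 (0.86, adjusted p = 0.00108), the annexin with a doubled core. All 4 probe sets of Anxa6 rose, with log2 fold changes of 0.51 to 0.98. Anxa7 had a log2 fold change of 0.36 (adjusted p = 0.0294). Omitting wild-type 2 ended its call (0.25, adjusted p = 0.0521), as did omitting knockout 1, 2 or 3 (adjusted p = 0.0857, 0.0669 and 0.0822). It was also lost with arrays centred on the median gene (0.29, adjusted p = 0.0668) and without wild-type 2 and knockout 3 together (0.24, adjusted p = 0.13). The 3 Anxa7 probe sets did not move alike, with log2 fold changes of 0.36, 0.03 and 0.80.

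Anxa13, an annexin of polarised epithelia, thought to be closest to the family's ancestor, ran the other way. It read 7.55, 7.23 and 8.19 in wild-type and 6.95, 6.54 and 6.77 in knockout samples. Every knockout value was below every wild-type value, and the log2 fold change was -0.90 (SE 0.23, adjusted p = 0.0152). The call was lost without knockout 2 (log2 fold change -0.80, adjusted p = 0.0565). Anxa9 and Anxa10 did not pass, with log2 fold changes of 0.11 (95% interval -0.07 to 0.29) and -0.12 (-0.32 to 0.08). Anxa11 is measured only by a probe set that several genes share and so lies outside the rule. That probe set read 8.13, 8.15 and 8.27 in wild-type and 8.13, 8.36 and 8.41 in knockout samples.

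**Figure D2:**
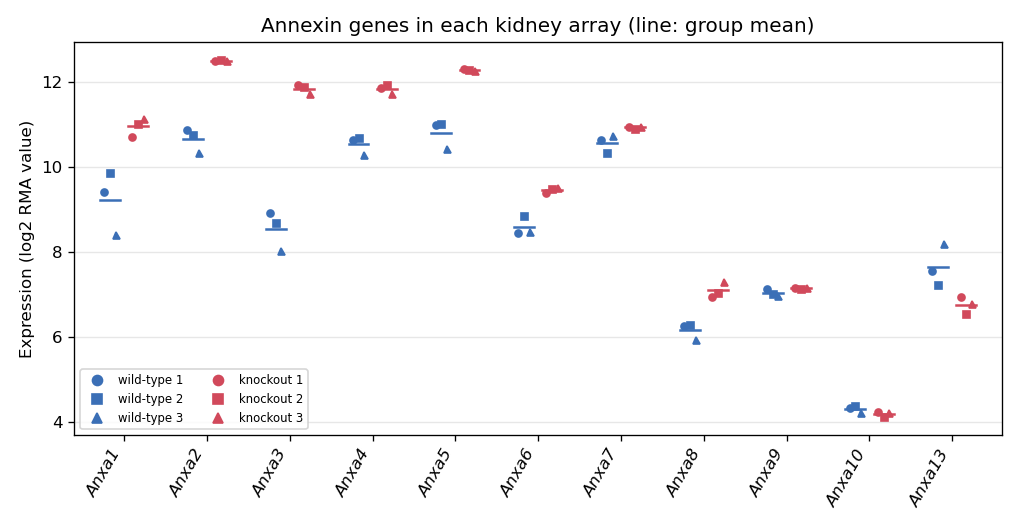
Expression of the 11 annexins in each array (log2 RMA value), wild-type in blue and knockout in red, 3 arrays per group, with a line at the group mean. Anxa3 shows the widest gap (means 8.54 and 11.84), Anxa13 is lower in the knockout, and wild-type 3 (triangle) is the lowest wild-type array for Anxa1 to Anxa5.

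Among the S100 genes, increases of at least 2-fold were seen for S100a6, S100a14, S100a10 and S100a4, and the inflammatory pair S100a8 and S100a9 was not among them. S100a6, or calcyclin, a partner of annexins in proliferating cells, read 10.16, 9.73 and 8.40 in wild-type and 11.99, 12.20 and 12.09 in knockout samples. It rose 6.31-fold (log2 fold change 2.66, SE 0.39, adjusted p = 0.00138). Its wild-type SD of 0.92 came from a low wild-type 3, and the knockout SD was 0.11. S100a14, an S100 protein of epithelia, read 5.82, 5.50 and 5.82 against 8.05, 8.53 and 8.25, a 5.92-fold rise (log2 fold change 2.56, SE 0.15, adjusted p = 2.76e-05), the smallest adjusted p of the 41 genes. Its wild-type values lay below the median wild-type gene (7.33), where RMA compresses differences.

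S100a4, also called fibroblast-specific protein and found in fibroblasts and leukocytes, read 7.35, 7.27 and 6.85 in wild-type and 8.08, 8.37 and 8.22 in knockout samples. Its rise was 2.09-fold (log2 fold change 1.07, SE 0.15, adjusted p = 0.000961). S100a16 rose 1.60-fold (log2 fold change 0.68, adjusted p = 0.000562), and its second probe set also rose (0.90). Markers of fibroblasts had means of 7.87 to 8.11 in wild-type and 8.75, 9.33 and 10.06 in knockout 1 to 3. Of these 9 markers 6 were higher and none lower (66.7% higher, against 21.6% of all genes). S100a4 was highest in knockout 2 and the fibroblast list in knockout 3, and the part of fibroblasts in its rise was not tested.

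Weak calls were made for S100a13 (log2 fold change 0.42, adjusted p = 0.0364) and S100a3 (0.39, adjusted p = 0.0367). The S100a13 call held without wild-type 2 and was lost without any 1 of the other arrays (0.30 to 0.44, adjusted p = 0.0773 to 0.109). It was also lost with arrays quantile-normalised again (0.34, adjusted p = 0.0657) or centred (0.34, adjusted p = 0.0558). That of S100a3 held without knockout 3 and was lost without any 1 of the others (0.31 to 0.42, adjusted p = 0.0555 to 0.12), as with arrays centred (0.31, adjusted p = 0.078). S100a3 is also dim, at 4.30 to 4.97 in every array.

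S100a8 and S100a9, the subunits of calprotectin, are secreted in bulk by neutrophils and monocytes. S100a8 read 4.85, 6.06 and 4.55 in wild-type and 4.44, 4.76 and 4.72 in knockout samples. S100a9 read 5.61, 6.19 and 5.17 against 5.18, 5.33 and 5.14. Wild-type 2 was the highest array for both and the groups overlapped. Their log2 fold changes were -0.51 (95% interval -1.32 to 0.30, adjusted p = 0.25) and -0.44 (-0.97 to 0.09, adjusted p = 0.142). Without wild-type 2 they were -0.05 and -0.17, and without wild-type 3 S100a9 passed as lower (-0.68, adjusted p = 0.0212), as with array weights (-0.51, adjusted p = 0.0441). Neutrophil markers gave 1 gene higher and 4 lower of 10 (10% and 40%, against 21.6% and 27.7% of all genes). Their list means were 5.38 to 5.55 in wild-type and 5.19 to 5.29 in knockout arrays. Like S100a8 and S100a9, these markers were dim, with a median wild-type level of 5.56 against 7.33 for all genes, so small differences say little about neutrophils. Macrophage markers gave 9 higher of 10 (90%, against 21.6% of all genes). Their list means were 7.82 to 8.05 in wild-type and 9.28 to 9.96 in knockout arrays.

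The remaining S100 genes did not pass. S100a1, the S100 protein of heart and skeletal muscle, read 11.50, 11.67 and 11.42 in wild-type and 11.39, 11.45 and 11.59 in knockout samples, a log2 fold change of -0.06 (95% interval -0.29 to 0.17). A second S100a1 probe set was lower by limma over all probe sets (log2 fold change -0.27, adjusted p = 0.0345). S100b, the glial and Schwann cell member, had -0.29 (adjusted p = 0.0776), S100a5 -0.27 (adjusted p = 0.147) and S100a7l2 -0.18 (adjusted p = 0.0957), all read between 3.64 and 6.09. With arrays centred on the median gene, S100b and S100a7l2 passed as lower (adjusted p = 0.0267 and 0.0326).

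Along chromosome 3 the S100 genes lie in one cluster, in the order S100a1, S100a13, S100a14, S100a16, S100a3, S100a2, S100a4, S100a5, S100a6, S100a7a, S100a8, S100a9, S100a7l2, S100a11 and S100a10 in RefSeq. Genes that rose and genes that did not pass were interleaved. S100a1 (log2 fold change -0.06) is followed in that order by S100a13 (0.42) and then S100a14 (2.56). S100a6 (2.66) sits between S100a5 (-0.27) and the stretch with S100a8 (-0.51) and S100a9 (-0.44). S100a11 is read only by a probe set that it shares with other genes and is outside the rule. That probe set read 12.04, 12.03 and 11.48 in wild-type and 13.47, 13.53 and 13.40 in knockout samples.

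**Figure D3:**
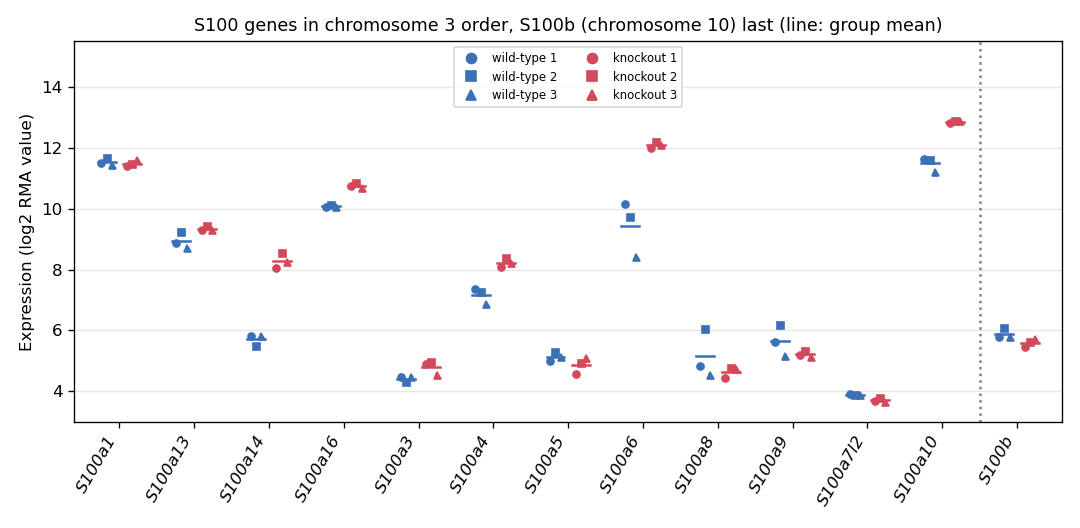
Expression of the 13 S100 genes in each array (log2 RMA value), in their order along chromosome 3, with S100b of chromosome 10 at the right; points are arrays and lines are group means. S100a14 (means 5.71 and 8.28), S100a6 (9.43 and 12.09) and S100a10 (11.48 and 12.86) stand apart by group, while S100a8 and S100a9 overlap.

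Ahnak, a giant scaffold that binds the annexin A2 and S100a10 complex under the membrane, rose together with its relative Ahnak2. Ahnak read 9.70, 10.03 and 9.72 in wild-type and 11.34, 11.33 and 11.46 in knockout samples, a 2.95-fold rise (log2 fold change 1.56, SE 0.11, adjusted p = 5.51e-05). Of its 3 other, dimmer probe sets, 2 were lower (log2 fold changes -0.52 and -0.37), and averaging all 4 ended the call (0.19, adjusted p = 0.145). Ahnak2, with 1 probe set, read 5.82, 6.13 and 5.97 against 7.21, 7.50 and 7.68 and rose 2.81-fold (log2 fold change 1.49, adjusted p = 0.000165).

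Among the ferlins, which fuse vesicles to membranes when calcium enters, myoferlin had the larger rise. Myof read 8.26, 8.75 and 7.73 in wild-type and 11.13, 11.07 and 11.12 in knockout samples, or 7.29-fold (log2 fold change 2.87, SE 0.225, adjusted p = 8.52e-05). Its second probe set read 3.40 to 3.62 in every array, and averaging both gave a log2 fold change of 1.42. Dysf, the dysferlin of muscle membrane repair, rose 1.51-fold (log2 fold change 0.59, SE 0.11, adjusted p = 0.00345). The 95% intervals of Myof (2.34 to 3.39) and Dysf (0.34 to 0.84) do not overlap, for the probe sets chosen. Dysf averaged 6.88 in wild-type, below the median gene (7.33), where RMA compresses differences.

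Syt7, a synaptotagmin that senses calcium in lysosome exocytosis, fell. It read 7.54, 7.31 and 7.49 in wild-type and 6.84, 6.76 and 6.75 in knockout samples, with a log2 fold change of -0.67 (SE 0.09, adjusted p = 0.000944). Of its 3 other probe sets 2 were also lower (-0.27 and -0.47), and the average of all 4 was -0.43. Cib1, a calcium- and integrin-binding protein, did not pass (log2 fold change -0.09, 95% interval -0.30 to 0.11).

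Of the wider list for membrane repair and the ESCRT-III machinery, which pinches off damaged membrane, 7 of 27 measured genes rose and 7 fell, with a median log2 fold change of -0.01. These shares (25.9% each way) were close to those of all genes (21.6% and 27.7%). The 2 largest increases were Chmp4c, an ESCRT-III subunit (0.96, adjusted p = 0.000538; 0.42 with all probe sets averaged), and Cavin1, a coat protein of caveolae (0.79, adjusted p = 0.000416), whose call was lost with all probe sets averaged (0.17, adjusted p = 0.0657). The largest decreases were Chmp6 (-0.49) and the ferlin gene Otof (-0.40, adjusted p = 0.0449). The call of Otof was lost under each single omission of wild-type 1, wild-type 3, knockout 1, knockout 2 or knockout 3 (-0.27 to -0.46, adjusted p = 0.067 to 0.138), and with arrays quantile-normalised again (-0.34, adjusted p = 0.0755).

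The calpain genes rose as a set of modest changes. Capn2, the large subunit of m-calpain, read 9.38, 9.53 and 9.23 in wild-type and 10.33, 10.25 and 10.28 in knockout samples (log2 fold change 0.91, SE 0.10, adjusted p = 0.000303). Capn5, a calpain that works without the small subunit, had a log2 fold change of 0.97 (adjusted p = 0.000319), and its second probe set did not pass (0.15), so that the average of both was 0.56. Capns1, the small subunit shared by the conventional calpains, rose 1.51-fold (0.59, adjusted p = 0.00628), and Capn1, the large subunit of mu-calpain, 1.33-fold (0.41, adjusted p = 0.011). The call of Capn1 was lost with the arrays quantile-normalised again (0.28, adjusted p = 0.0514) and without wild-type 2 and knockout 3 together (0.36, adjusted p = 0.073).

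Among the 12 genes of the calpain system outside the 41, 1 rose, 2 fell and 9 did not pass (8.3% higher and 16.7% lower). Over all genes 21.6% rose and 27.7% fell, and the difference from those shares was not tested. The riser was Cast, calpastatin, the inhibitor of the conventional calpains, at a log2 fold change of 0.69 (SE 0.17, adjusted p = 0.0124). Capn6, a calpain without protease activity, had -0.72 (adjusted p = 0.00386), and Capn10 had -0.60 (adjusted p = 0.0021).

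Galectin-3, a lectin of injured tubule cells and macrophages, rose most among its family. Lgals3 read 10.73, 11.00 and 10.03 in wild-type and 12.92, 13.00 and 12.95 in knockout samples, or 5.17-fold (log2 fold change 2.37, SE 0.22, adjusted p = 0.000179). Lgals1, a galectin of mesenchymal and immune cells, read 10.61, 11.80 and 10.85 against 12.57, 12.62 and 12.61, or 2.85-fold (log2 fold change 1.51, SE 0.27, adjusted p = 0.00342). Wild-type 2 was the highest wild-type array for both. Without wild-type 2 the log2 fold change of Lgals1 was 1.87, and both of its probe sets rose.

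The other galectins changed less. Lgals9, a galectin that acts on T cells, had a log2 fold change of 0.61 (adjusted p = 0.0235), with knockout 1 just below wild-type 1 (both 8.59). Its call was lost without wild-type 2, wild-type 3, knockout 2 or knockout 3 (0.50 to 0.55, adjusted p = 0.0557 to 0.0799), with array weights (0.53, adjusted p = 0.0544) and without wild-type 2 and knockout 3 together (0.42, adjusted p = 0.144). Lgals4, an intestinal galectin, did not pass (0.51, adjusted p = 0.0654) unless wild-type 2 was left out (0.74, adjusted p = 0.00264), alone or together with knockout 3 (0.65, adjusted p = 0.00714). Lgals8, which marks damaged endosomes, had 0.10 (95% interval -0.11 to 0.32).

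Of 12 other galectins and galectin ligands, 4 rose and 2 fell (33.3% and 16.7%, against 21.6% and 27.7% of all genes). Cd44, a hyaluronan receptor and glycoprotein ligand of galectins, had the largest rise (log2 fold change 4.05; 2.55 with all probe sets averaged), followed by Trim16, a ubiquitin ligase that works with galectin-3 on broken endosomes (1.06, adjusted p = 0.000383). Mgat5, the glycosyltransferase that builds the branched sugars galectin-3 prefers, was lower (-0.78, adjusted p = 0.00062), and so was Lgals7 (-0.34, adjusted p = 0.00929).

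Capg, a capping protein of actin filament ends that is rich in macrophages, was the least even of the genes that rose. It read 8.03, 9.75 and 7.92 in wild-type and 10.31, 10.26 and 10.09 in knockout samples (log2 fold change 1.65, SE 0.44, adjusted p = 0.017). Wild-type 2 approached the knockout values, and omitting it gave a log2 fold change of 2.24 (adjusted p = 2.55e-05). The call was lost without wild-type 1, wild-type 3, knockout 1 or knockout 2 (1.33 to 1.63, adjusted p = 0.0525 to 0.0548). With both probe sets averaged it was 0.99. Macrophage markers in wild-type 2 averaged 7.96, between 7.82 and 8.05 in the other wild-type arrays, while adipocyte markers in that array averaged 8.68 against 6.65 and 6.75. Knockout 3, also high in adipocyte markers (8.37), had the lowest knockout value of Capg. The part of other cells in these values was not tested.

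Cald1, caldesmon, which binds actin and tropomyosin and restrains myosin, read 10.74, 10.73 and 10.28 in wild-type and 11.46, 11.56 and 11.66 in knockout samples (log2 fold change 0.98, SE 0.14, adjusted p = 0.0011). Of its 4 other probe sets 3 rose (0.60 to 1.45). Among 22 further genes that sever, cap or bundle actin or work with caldesmon, 14 rose and none fell (63.6% higher). The share over all genes was 21.6%, and the median log2 fold change of the 22 genes was 0.85. The largest changes were in Flna, the actin crosslinker filamin A (2.24, SE 0.08), and Actn1, alpha-actinin 1 (2.00, SE 0.12; 1.21 with all probe sets averaged). Smooth muscle markers gave 1 higher and 2 lower of 7 (14.3% and 28.6%, against 21.6% and 27.7% of all genes).

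Of 7 measured genes that work with annexin A2 in plasmin generation or bind annexins, 4 rose and none fell (57.1% higher, against 21.6% of all genes). Plaur, the urokinase receptor, read 7.05, 7.51 and 6.71 in wild-type and 9.09, 9.21 and 9.11 in knockout samples (log2 fold change 2.05, SE 0.18, adjusted p = 0.000144), and Plat, tissue plasminogen activator, rose 2.32-fold (1.21, adjusted p = 0.00197; 0.59 with all probe sets averaged).

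Of 11 receptors for annexin A1 and S100 proteins 5 rose and none fell (45.5% higher, against 21.6% of all genes). Cd14, a co-receptor of Tlr4, rose with a log2 fold change of 2.97 (adjusted p = 3.26e-05). Fpr2, the formyl peptide receptor through which annexin A1 signals, read 5.91, 5.99 and 5.35 against 6.79, 7.60 and 7.28 (1.48, SE 0.24, adjusted p = 0.002). Fpr2 and Cd14 are myeloid genes, and macrophage markers were higher in the same arrays. Their part in these rises was not tested.

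The EF-hand buffers S100g, Pvalb and Calb1 of the nephron fell. They stand on a list of other calcium-binding EF-hand proteins, of whose 15 measured genes 4 rose (26.7%, against 21.6% of all genes) and 6 fell (40%, against 27.7%), with a median log2 fold change of -0.02. S100g, calbindin-D9k, the S100 relative excluded by the rule, read 12.73, 12.89 and 12.40 in wild-type and 11.11, 10.92 and 11.33 in knockout samples (log2 fold change -1.55, SE 0.15, adjusted p = 0.000214). Pvalb, parvalbumin of the distal convoluted tubule, had -3.65 (SE 0.44). Calb1, calbindin-D28k, had -0.67 (adjusted p = 0.0346), and its call was lost without wild-type 1, wild-type 2, knockout 1 or knockout 2 (-0.47 to -0.71, adjusted p = 0.06 to 0.111). Averaging all Calb1 probe sets also ended it (-0.59, adjusted p = 0.105).

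The largest increases on that list were in reticulocalbin Rcn1 of the endoplasmic reticulum (2.46, adjusted p = 4.35e-05; 1.16 with all probe sets averaged) and Efhd2, swiprosin-1 (1.18, adjusted p = 0.0124). Without wild-type 3 the log2 fold change of Efhd2 was 0.80 (adjusted p = 0.000521). Loop of Henle and distal tubule markers, which include the segments where these buffers are made, fell in 7 of 8 cases, but Calb1 is itself one of those 7. Without Calb1, 6 of 7 fell, with list means of 11.87 to 12.06 in wild-type and 10.28 to 10.83 in knockout arrays. The share that fell over all genes was 27.7%. The part of these segments in the fall of the buffers was not tested.

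The 41 genes varied more within the wild-type group than genes at large. Their median SD was 0.22 among wild-type and 0.10 among knockout arrays, against 0.14 and 0.09 over all genes. The knockout SD was below the wild-type SD for 33 of 41. Wild-type 3 was the lowest wild-type array for 22 of the 41 genes and wild-type 2 the highest for 22. Neither the SD count nor these array counts were made over all genes, so they are not shown to be particular to these 41. Wild-type 3 also had the lowest array weight over all genes (0.355). Of 11 measured markers of injured tubule 11 rose, against 21.6% of all genes. They averaged 8.54, 8.51 and 7.97 in wild-type 1 to 3 and 11.11 to 11.16 in knockout arrays. Wild-type 3 was thus low for both, and no link between them was tested.

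**Figure D4:**
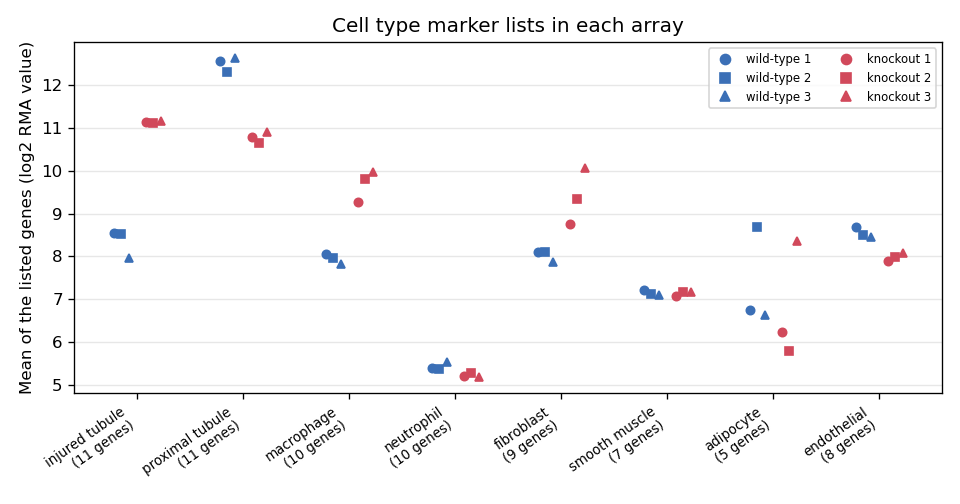
Mean log2 RMA value of 8 cell type marker lists in each array, wild-type in blue and knockout in red, with 1 symbol per replicate number. Injured tubule, macrophage and fibroblast lists are higher in all 3 knockout arrays, the neutrophil list is lower in all 3 (5.19 to 5.29 against 5.38 to 5.55), the smooth muscle list overlaps, and the adipocyte list is high in wild-type 2 (8.68) and knockout 3 (8.37). The neutrophil list is dim, below the median wild-type gene (7.33) in every array.

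The calls are also given by wild-type level, with no test of the difference. Of the 27 genes at or above the median wild-type level of all genes (7.33), 22 rose, 2 fell and 3 did not pass, and 28.5% of all genes in that range rose and 27.1% fell. Of the 14 below it, 6 rose and 8 did not pass, and 14.7% of all genes there rose and 28.2% fell. The 11 genes that did not pass were Anxa9, Anxa10, S100a1, S100a5, S100a7l2, S100a8, S100a9, S100b, Lgals4, Lgals8 and Cib1. RMA gives no detection call, so for the dim ones a value at background cannot be told from a low level.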

How the data were processed

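The table deposited by the authors holds RMA values on the log2 scale for 45101 probe sets and 6 arrays. The submitters' processing notes name RMA; that it is in log2 was judged from the range (2.9 to 14.82). No source here names the RMA version or software. RMA subtracts background, equalises the arrays and gives no detection call, so differences of dim genes are compressed. Probe sets were named through a supplied platform annotation, which can be old; 34945 had 1 symbol and 932 had several. Symbols were updated through the RefSeq gene table.

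The test was a two-sided moderated fit in limma 3.58.1 under R 4.3.3 (functions lmFit and eBayes), with neither covariate nor filter. On simulated data it recovered 38% of log2 changes of 0.5, 79% of changes of 1 and 96% of changes of 2. Of its 151 calls there 5 were false. The members and lists were chosen with earlier results of these data known. Any of the 41 genes may be named, and of each partner list the 2 largest called changes in each direction, plus S100g, Calb1, Pvalb, Cast and Cd44. The 41 genes were removed from partner and marker lists. Alternatives changed the probe set rule, the filter, the prior, the scaling, weights, pairing, arrays and thresholds. Precision is limited by 3 arrays per group. Python 3.11.15 made tables and plots.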

Additional observations from a re-analysis of the deposited data

How the results depend on the processing

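Of the 30 called genes among the 41, 22 kept call and direction under the alternatives in which they were tested, other than the stricter thresholds, and no called gene reversed. Ahnak2, Anxa8, Dysf, S100a14 and Syt7, 5 of the 22, were not tested under the filter on median signal, nor were Anxa13 and S100a3. Calls were lost under at least 1 of these alternatives for Ahnak, Anxa7, Anxa13, Capg, Capn1, Lgals9, S100a13 and S100a3. With genes under the median signal left out, 26 of the members were tested. Of these 23 were higher and 0 lower, since Anxa13 and Syt7 were not tested there. Of all genes that passed that filter 2944 were higher and 2334 lower, so these counts are not out of 18193. Centring on the median of the genes tested gave 25 members higher and 4 lower, with 3380 of all genes higher and 6866 lower. At adjusted p under 0.01, 22 members were higher and 1 lower, and 2640 of all genes were higher and 2371 lower. With a change of at least 2-fold also required, 15 members were higher and 0 lower, and 990 of all genes were higher and 617 lower. Leaving out each array in turn gave 23 to 26 members higher and 1 to 3 lower, and 3113 to 3860 of all genes higher and 3160 to 4810 lower. Leaving out wild-type 2 and knockout 3 together, an alternative chosen after seeing the data, gave 26 members higher and 2 lower. Of all genes 3096 were then higher and 3212 lower. Same-numbered arrays did not deviate together (correlations of -0.10, -0.13 and -0.13), so the numbers were not taken as pairs; the fit with the replicate number as a block gave 27 members higher and 2 lower, S100a3 and, outside the 41, Calb1 and Otof losing their calls (adjusted p = 0.0634, 0.0568 and 0.0727), and 3510 of all genes higher and 3930 lower.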
